A study of Homo sapiens with 48 samples.

Results

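The transcripts described here are the named antisense, intronic and divergent transcripts of HEK293T cells, a human embryonic kidney line. They were chosen by name alone: every row of the 3 gene count tables whose current symbol ends in -AS (antisense), -IT (intronic transcript) or -DT (divergent transcript), with or without a number. This gave 634 of 14685 genes, of which 386 were -AS, 212 were -DT and 36 were -IT. The gene named before the hyphen, called the sense gene here, was in the same tables for 556 of them.

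HEK293T cells were transfected with a plasmid for NCBP1 fused to Halo, a tag that binds a photocaged probe. In the T-REX arm, light then released HNE, a lipid-derived electrophile, beside NCBP1, and RNA was taken 3, 6 or 12 h later. The controls were light alone (a UV control in the sample labels), probe alone (probe without light) and DMSO (vehicle without light), with 4 libraries per arm and time and 48 libraries in all, and every arm carried the plasmid. The study's list of controls names the probe for light alone as well as for probe alone, so how light alone differed from T-REX is not given in the sources used here. The comparison asks which of these transcripts changed after HNE was delivered to NCBP1.

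NCBP1 forms the nuclear cap-binding complex together with NCBP2, and the complex binds the cap of nascent RNA polymerase II transcripts, long noncoding RNAs included. Through partners such as ARS2 (the gene SRRT), the complex is known to link short and unspliced noncoding transcripts to 3' end formation and to decay by the nuclear exosome. Divergent transcripts start at the promoter of a coding gene and run away from it, antisense transcripts run across a gene on its other strand, and intronic transcripts lie within an intron of a gene on the same strand.

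The annotated positions followed the names. In GENCODE 29, 146 of the 212 -DT transcripts lay head to head with their sense gene without overlap and 59 overlapped it on the opposite strand. Of the -AS transcripts, 287 overlapped the sense gene on the opposite strand and 24 lay head to head with it, and 35 of 36 -IT transcripts overlapped theirs on the same strand. RefSeq promoter windows (250 bases before to 50 after a start, GRCh38.p14) were found for 482 member symbols, and for both genes of 432 pairs. The starts of a -DT transcript and its sense gene were within 300 bases of each other in 118 of 163 pairs (median distance 181 bases), compared with 100 of 258 -AS pairs (median 571.5 bases) and 0 of 11 -IT pairs. The plot of start distances shows both distributions.

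5 windows are shown because they start transcripts that the results turn on and stand for the 3 kinds of layout. In the first 2, capitals mark transcribed bases of both genes. Those of the sense gene, read on the other strand, are at the left end. The first 50 bases of the divergent transcript are at the right end. The lower-case stretch holds the bases between the 2 annotated starts (122 bases for COPB2-DT and 45 for COX10-DT). In IRS4-AS1, capitals mark the 24 bases that lie downstream of both annotated starts, where the 2 transcripts overlap at their 5' ends. In PCGF3-AS1 and SND1-IT1, capitals mark the first 50 transcribed bases, and the start of the sense gene is 76017 and 345315 bases away. All are from RefSeq, GRCh38.p14, written 5' to 3' on the member's strand: COPB2-DT at chr3:139389553-139389852 (plus), COX10-DT at chr17:14069409-14069708 (minus), IRS4-AS1 at chrX:108736290-108736589 (plus), PCGF3-AS1 at chr4:781800-782099 (minus) and SND1-IT1 at chr7:127997259-127997558 (plus).
COPB2-DT: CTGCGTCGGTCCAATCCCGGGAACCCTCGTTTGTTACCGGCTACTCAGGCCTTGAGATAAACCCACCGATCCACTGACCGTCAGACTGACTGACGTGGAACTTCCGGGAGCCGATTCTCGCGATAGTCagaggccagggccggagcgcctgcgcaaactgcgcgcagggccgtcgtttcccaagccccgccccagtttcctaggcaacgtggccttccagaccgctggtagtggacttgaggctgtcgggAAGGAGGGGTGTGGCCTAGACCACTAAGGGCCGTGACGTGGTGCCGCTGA
COX10-DT: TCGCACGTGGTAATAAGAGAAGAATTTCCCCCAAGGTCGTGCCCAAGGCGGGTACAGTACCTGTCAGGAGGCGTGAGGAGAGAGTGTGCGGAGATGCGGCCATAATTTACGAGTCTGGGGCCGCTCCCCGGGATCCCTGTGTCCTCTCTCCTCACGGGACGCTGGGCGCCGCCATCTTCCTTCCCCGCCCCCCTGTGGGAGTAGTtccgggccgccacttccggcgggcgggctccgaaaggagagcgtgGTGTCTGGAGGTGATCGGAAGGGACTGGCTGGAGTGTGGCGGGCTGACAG
IRS4-AS1: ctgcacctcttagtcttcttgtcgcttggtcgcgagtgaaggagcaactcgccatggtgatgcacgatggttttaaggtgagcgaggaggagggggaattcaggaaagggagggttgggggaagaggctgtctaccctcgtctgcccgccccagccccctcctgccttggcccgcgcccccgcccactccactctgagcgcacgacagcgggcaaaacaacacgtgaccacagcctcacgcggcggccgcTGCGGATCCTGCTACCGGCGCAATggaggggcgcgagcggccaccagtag
PCGF3-AS1: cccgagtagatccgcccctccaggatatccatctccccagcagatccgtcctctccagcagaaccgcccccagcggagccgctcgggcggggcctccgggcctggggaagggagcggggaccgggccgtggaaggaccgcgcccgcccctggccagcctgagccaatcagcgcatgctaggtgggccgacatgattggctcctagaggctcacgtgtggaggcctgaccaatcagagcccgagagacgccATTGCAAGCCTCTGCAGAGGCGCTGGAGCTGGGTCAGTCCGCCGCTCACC
SND1-IT1: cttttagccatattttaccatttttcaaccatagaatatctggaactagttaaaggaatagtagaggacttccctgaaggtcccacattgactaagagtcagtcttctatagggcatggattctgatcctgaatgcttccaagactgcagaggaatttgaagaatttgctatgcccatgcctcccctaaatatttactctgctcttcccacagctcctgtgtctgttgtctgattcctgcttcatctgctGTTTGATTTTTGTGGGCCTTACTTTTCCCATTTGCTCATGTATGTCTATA

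The windows of the divergent class were rich in G and C. The median G and C content was 68.0% over 171 -DT windows and 64.3% over 299 -AS windows, compared with 58.3% over all 27305 promoter windows, and 44.2% over 12 -IT windows. The letters GGCGGG, searched on both strands, were in 77.8% of -DT and 60.5% of -AS windows (44.7% of all), and TATAAA was in 4.09% and 5.35% (12.0% of all). CCAAT was in 33.9% of -DT, 31.8% of -AS and 35.7% of all windows. The windows are 1 per gene, and the 27305 include genes outside the count tables, whereas all members are in them. Class and presence in the count tables were therefore not separated. These shares describe letters in a window and were not tested.

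The tables hold counts per gene that were not normalized, with 23952455 to 37099535 counts per library (median 29405598.5). Members were low: the median member had a mean of 134 counts per library, compared with 627 over all genes, and together they took 0.616 to 0.821% of a library's counts. Levels are given below as CPM (a gene's counts relative to the library total, at the usual CPM scale) scaled by TMM factors over all 48 libraries. FGD5-AS1 had the highest mean level (212 CPM), followed by TMEM161B-DT (175 CPM), TTN-AS1 (170 CPM) and THUMPD3-AS1 (166 CPM). The highest intronic transcripts were N4BP2L2-IT2 (44.4 CPM), E2F3-IT1 (20.4 CPM) and ANKRD10-IT1 (19 CPM).

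Compared per kb of exon length, the median member was at 31.4% of its sense gene over 553 pairs. The median was 36.7% for -AS, 25.2% for -DT and 38.4% for -IT transcripts. The member was above its sense gene in 112 of 553 pairs, among them RNF32-AS1 (38.6 against 0.858 CPM per kb), RAB30-DT (28.8 against 0.995 CPM per kb) and TMEM161B-DT (39.3 against 12.1 CPM per kb). Reads of a member that lies in or across another gene may not be told apart from reads of that gene: the libraries were stranded, but whether the authors' counting used strand is not given in the sources used here, and strand would not separate an -IT transcript from its host's unspliced RNA.

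Of the HEK293T markers, all 10 were in the tables, and none of 7 markers of leukocytes, endothelium, liver and muscle was. Their levels were uneven: IRS4 was at 367 to 727 CPM, KRT8 at 4.39 to 10.4 CPM and LHX1 at 0.771 to 3.15 CPM. NCBP1 itself was at 30797 to 92201 CPM, counts that mix the transfected and the cellular gene, and it differed between arms. At 12 h it was 57501 ± 5339 CPM under T-REX (SD, n = 4) and 59151 ± 10048 CPM with probe alone, compared with 40520 ± 6848 CPM with light alone and 34642 ± 4554 CPM with DMSO. At 3 h it was 75865 ± 15157 CPM under T-REX and 53847 ± 6155 CPM with DMSO. Whether this plasmid difference has a part in the results against DMSO was not tested. In bulk RNA, fewer cells with a transcript and less of it per cell cannot be told apart, and all p-values measure the spread between these libraries.

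Over the 9 comparisons of T-REX with a control (edgeR quasi-likelihood test, adjusted by Benjamini-Hochberg over all 14685 genes, called at an adjusted p of at most 0.05), 55 of 634 members were called at least once. This was 8.68% of members, whereas 2187 of all 14685 genes (14.9%) were called at least once. Of the 55 members, 43 were higher and 12 lower under T-REX, and none changed direction. By class, 36 of 386 -AS (27 higher), 18 of 212 -DT (15 higher) and 1 of 36 -IT transcripts (higher) were called. For 45 of the 55 the calls were against DMSO only, and 10 were called in 2 or more comparisons. Over all genes too, the comparison with DMSO called the most at each time (880, 61 and 1598 genes at 3, 6 and 12 h). More of these genes were lower than higher at each time. The other 579 members passed in no comparison.

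At 3 h, calls against DMSO were mostly upward. T-REX against DMSO called 26 members (4.10%, 21 higher), compared with 5.99% of all genes (213 higher and 667 lower). Against probe alone 5 members were called (0.789%, all higher; 1.05% of all genes), and against light alone 2 (0.315%, both higher; 0.197% of all genes). The members' share was therefore below that of all genes against DMSO and probe alone and slightly above it against light alone. PCGF3-AS1 and SND1-IT1 were the 2 members called against at least 2 controls (0.947% of all genes), and both were called against all 3.

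PCGF3-AS1, antisense to the polycomb group ring finger gene PCGF3, was at 15.9, 15.6, 15.7 and 12.8 CPM under T-REX at 3 h. It was at 10.3, 9.50, 8.94 and 10.3 CPM with light alone, at 11.1, 9.86, 11 and 10.8 CPM with probe alone, and at 9.82, 10.7, 9.78 and 9.33 CPM with DMSO. All 4 T-REX libraries were above all control libraries. The log2 fold change from light alone was 0.62 ± 0.09 (SE, adjusted p = 0.0041), that from probe alone 0.50 ± 0.09 (adjusted p = 0.0144) and that from DMSO 0.60 ± 0.09 (adjusted p = 0.00132). PCGF3 was not called at 3 h, with log2 fold changes of -0.20 ± 0.12, 0.02 ± 0.12 and -0.01 ± 0.12 against the same controls. At 6 and 12 h PCGF3-AS1 was not called (log2 fold changes of 0.01 to 0.40), and PCGF3 fell at 12 h compared with DMSO (-0.23 ± 0.06 on the log2 scale, adjusted p = 0.00897). The change of the T-REX effect on PCGF3-AS1 from 3 to 6 h was not called (-0.23 ± 0.14, edgeR adjusted p = 0.731). It was not called from 3 to 12 h either, and the test called no gene for 6 against 3 h. These values do not show that the effect faded.

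SND1-IT1 lies in an intron of SND1, which codes for a nuclease-domain and Tudor-domain protein that binds RNA. At 3 h it was at 19.1, 18.5, 11.8 and 15.2 CPM under T-REX, compared with 9.06, 9.50, 9.57 and 12.0 CPM with light alone, 9.05, 10.6, 11.5 and 11.6 CPM with probe alone, and 10.2, 8.41, 9.71 and 10.1 CPM with DMSO. The third T-REX library overlapped the light alone range, and the T-REX range was above those of probe alone and DMSO. SND1-IT1 changed by 0.69 ± 0.14 on the log2 scale from light alone (adjusted p = 0.0299), by 0.61 ± 0.13 from probe alone (adjusted p = 0.0352) and by 0.75 ± 0.14 from DMSO (adjusted p = 0.00322). SND1 itself, on the same strand, rose by less: its log2 fold change was 0.33 ± 0.06 from light alone (adjusted p = 0.00767), 0.20 ± 0.06 from DMSO (adjusted p = 0.0345) and 0.04 ± 0.06 from probe alone (adjusted p = 0.701). Without any 1 library in turn, the calls of SND1-IT1 held in 9, 9 and 16 of 16 fits against light, probe and DMSO, and PCGF3-AS1 held in 16, 14 and 16 of 16 fits in the same order. When only the 2 arms compared were fitted, neither was called against light alone or probe alone. DESeq2 did not call either of them against light alone.

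The 3 other members called against probe alone at 3 h, KLHL7-DT, SEPTIN7-DT and RAB33B-AS1, were outside the naming rule and are named because they complete the count. Their log2 fold changes were 0.70 ± 0.15 for KLHL7-DT (adjusted p = 0.0349), 0.92 ± 0.22 for SEPTIN7-DT (adjusted p = 0.0489) and 0.33 ± 0.08 for RAB33B-AS1 (adjusted p = 0.0489). Their sense genes, a ubiquitin ligase adaptor, a septin and a small GTPase, were not called, with log2 fold changes of -0.14 to -0.05 against probe alone. Without any 1 library in turn, the calls of KLHL7-DT, SEPTIN7-DT and RAB33B-AS1 held in 11, 2 and 3 of 16 fits. DESeq2 did not call KLHL7-DT or SEPTIN7-DT, RAB33B-AS1 was not called with the replicate number as a block, and with only the 2 arms compared none of them was called.

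Against DMSO at 3 h, 11 of 212 divergent transcripts were called, beside 5.99% of all genes. Of these, 8 rose and 3 fell. ARNT2-DT (log2 fold change 0.62 ± 0.14, adjusted p = 0.0143) and ODC1-DT (0.89 ± 0.24, adjusted p = 0.0291) were higher, whereas ARNT2, a bHLH-PAS transcription factor gene, and ODC1, which codes for the first enzyme of polyamine synthesis, had log2 fold changes of 0.04 and -0.05. COX10-DT, whose promoter is shown above, fell by 0.27 on the log2 scale (SE 0.05, adjusted p = 0.00618), beside no call for COX10, which codes for an enzyme of heme A synthesis. FOXP1-DT (-0.48 ± 0.12, adjusted p = 0.0211) and NIPBL-DT (-0.26 ± 0.07, adjusted p = 0.0343) were also lower. None of these named here was called against light alone or probe alone at 3 h. The calls of ARNT2-DT, ODC1-DT, COX10-DT, FOXP1-DT and NIPBL-DT held in 14, 12, 16, 13 and 10 of 16 fits without 1 library. DESeq2 did not call ODC1-DT, and with only the 2 arms compared COX10-DT alone kept its call.

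2 of the more abundant antisense transcripts fell against DMSO. FGD5-AS1 was at 211, 195, 189 and 182 CPM under T-REX at 3 h and at 231, 224, 229 and 224 CPM with DMSO, with no overlap between the arms. It overlapped light alone (208 to 224 CPM) and probe alone (207 to 224 CPM). It fell by 0.22 on the log2 scale against DMSO (SE 0.05, adjusted p = 0.00743), and by 0.20 at 12 h (SE 0.05, adjusted p = 0.0118). At 12 h probe alone was itself called against DMSO for FGD5-AS1. Both calls of FGD5-AS1 against DMSO held in 16 of 16 fits without 1 library, and both were lost with only the 2 arms compared. OIP5-AS1, the conserved RNA also known as Cyrano, was at 122, 123, 113 and 124 CPM under T-REX at 3 h, compared with 147, 139, 126 and 147 CPM with DMSO. It fell by 0.21 against DMSO (SE 0.05, adjusted p = 0.019), beside log2 fold changes of -0.20 ± 0.05 against probe alone (adjusted p = 0.0591) and -0.07 ± 0.05 against light alone. The call of OIP5-AS1 held in 14 of 16 fits without 1 library and was lost with only the 2 arms compared.

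The T-REX libraries at 3 h did not move together. The median over the 634 members of a library's deviation from the mean of the 16 libraries of its time was 0.20, 0.05, -0.02 and 0.10 (log2 CPM) in the 4 T-REX libraries. It was 0.01 to 0.05 with light alone, -0.09 to -0.01 with probe alone and -0.05 to -0.03 with DMSO. Replicate 3 was the only T-REX library below the mean, and its first deposited factor of unwanted variation (RUV1, a score per library) was the lowest of its arm at -0.55, beside 0.56, 0.23 and -0.20. The summed level of the 36 intronic transcripts was 325, 287, 198 and 281 CPM in the T-REX libraries, so that replicate 3 was also below the control range of 220 to 264 CPM. Other long noncoding RNAs deviated in the same order, with medians of 0.21, 0.08, -0.13 and 0.10 in the same libraries over 1102 genes, and protein-coding genes did not (-0.02 to 0.01).

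**Figure D1:**
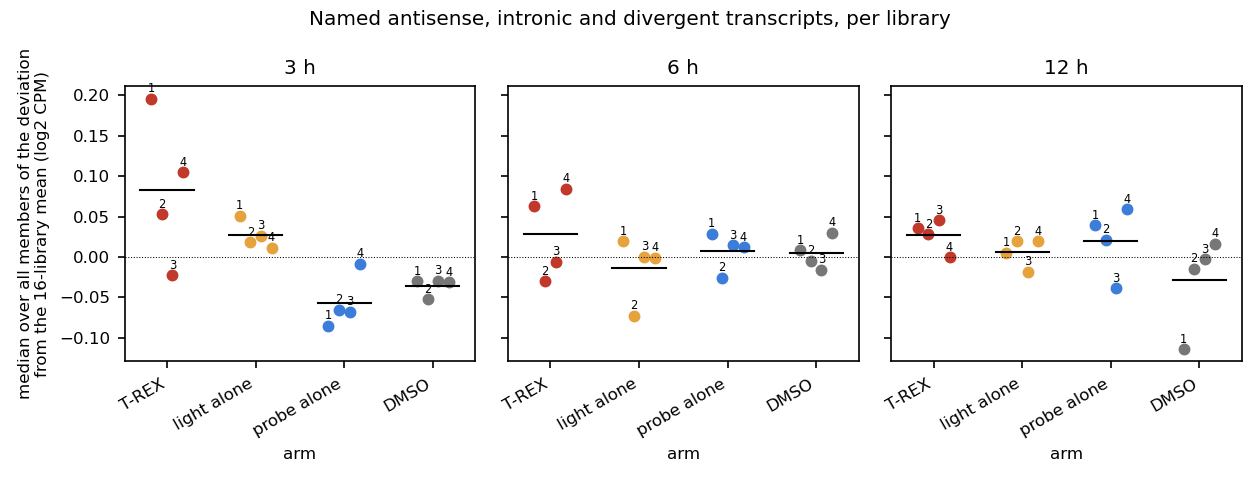
Median over 634 members of the deviation of each library from the mean of the 16 libraries of its time point (log2 CPM, y axis), by arm (x axis) and time (panels). Points are libraries with their replicate numbers and lines are arm means. At 3 h the T-REX libraries run from -0.02 (replicate 3) to 0.20 (replicate 1), and DMSO from -0.05 to -0.03.

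Without replicate 3 of the T-REX arm at 3 h, many more members passed, all but 4 of them upward. The count rose to 15 against light alone (2.37%, all higher; 0.81% of all genes), 45 against probe alone (7.10%, all higher; 3.64% of all genes) and 54 against DMSO (8.52%, 50 higher; 6.28% of all genes). Against at least 2 controls the count was 29 members, all higher (4.57%, compared with 2.51% of all genes). The members' shares were then above those of all genes in each of these counts. This fit was singled out after the values were seen, and a group of 3 libraries chosen for how its member values lie cannot stand as a test.

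Among those 29 were COPB2-DT (log2 fold changes 0.43 from light alone, 0.39 from probe alone and 0.36 from DMSO), N4BP2L2-IT2 (0.41, 0.46 and 0.38), SH3BP5-AS1 (0.27, 0.26 and 0.37) and GABPB1-AS1 (0.22, 0.37 and 0.29). With all 4 libraries, none of these 4 passed against at least 2 controls. With all libraries, the median log2 fold change of members at 3 h was 0.06 from light alone, 0.19 from probe alone and 0.15 from DMSO (0.00, 0.02 and 0.03 over all genes), and 0.09, 0.22 and 0.17 without replicate 3. Over the 1102 other long noncoding RNAs the medians with all libraries were 0.07, 0.15 and 0.13, so the shift was not particular to the members. Light alone was itself above probe alone (median 0.12) and DMSO (median 0.07) over members.

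At 6 h, 1 member was called in each comparison. This was 0.158% of members each time, whereas the share of all genes called was 0.218% (light alone), 0.109% (probe alone) and 0.415% (DMSO). COPB2-DT was called against light alone and GLIPR1-AS1 against DMSO. No member was called against at least 2 controls (0.136% of all genes), and the members' unadjusted p was at most 0.05 for 68, 42 and 66 of 634 in these comparisons by edgeR. These were 10.7, 6.62 and 10.4% of members, beside 11.7, 6.56 and 12.4% of all genes. DESeq2 called 3 members (0.473%) and 71 of all genes (0.483%) against at least 2 controls. The median log2 fold change of members was 0.04, 0.03 and 0.02, beside 0.07, 0.04 and 0.05 over the other long noncoding RNAs.

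COPB2-DT, which shares its promoter with the coatomer subunit gene COPB2, was at 26.2, 20.3, 21.7 and 23.8 CPM under T-REX at 6 h. It was at 18.6, 15.6, 17.4 and 15.5 CPM with light alone and at 16.2, 17.7, 19.2 and 18.1 CPM with DMSO, all below the T-REX range, and at 22.4, 18.5, 19.5 and 21.2 CPM with probe alone, which overlapped it. The difference from light alone was 0.45 ± 0.10 (log2, adjusted p = 0.0455), compared with 0.37 ± 0.10 from DMSO (adjusted p = 0.0809) and 0.17 ± 0.10 from probe alone (adjusted p = 0.809). NCBP1 counts at 6 h were 72832 ± 5963 CPM under T-REX, 82943 ± 12035 CPM with probe alone, 41696 ± 8909 CPM with light alone and 53742 ± 5905 CPM with DMSO, and their part in the COPB2-DT difference was not tested. It was positive in all 9 comparisons (0.17 to 0.45) and also passed against DMSO at 12 h (0.35 ± 0.10, adjusted p = 0.028). COPB2 was not called in any, and its level at 6 h was 254 ± 7.05 CPM under T-REX and 251 ± 9.02 CPM with light alone (SD, n = 4). COPB2-DT is outside the naming rule and was chosen after its values were seen. Its 6 h call held in 5 of 16 fits that left out 1 library.

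GLIPR1-AS1 rose at 6 h compared with DMSO (0.46 ± 0.10 on the log2 scale, adjusted p = 0.0341), with 0.35 ± 0.10 against light alone and 0.08 ± 0.10 against probe alone. It too is outside the naming rule. The call was lost with the replicate number as a block and held in 11 of 16 fits without 1 library.

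**Figure D2:**
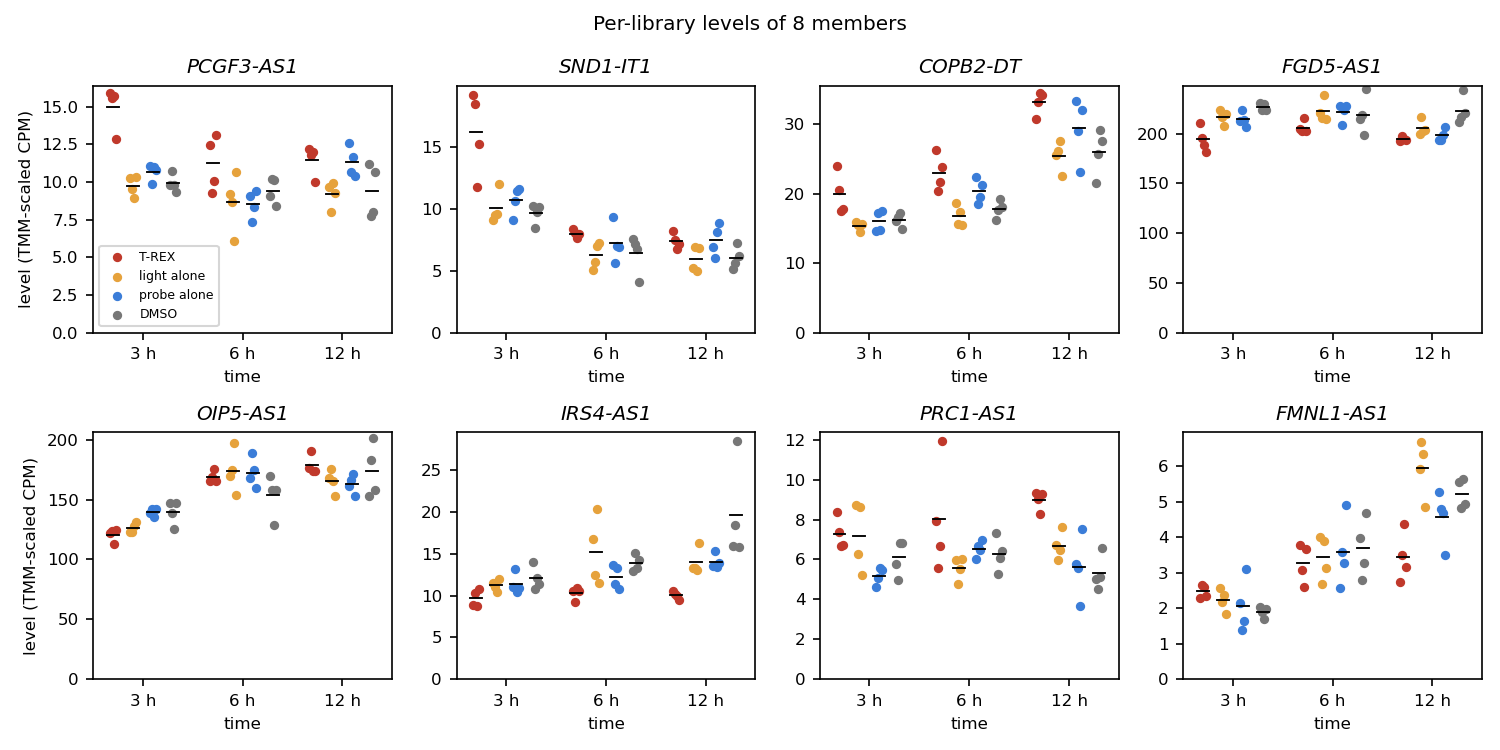
Levels of 8 members in each of 48 libraries (TMM-scaled CPM, y axis from 0) at 3, 6 and 12 h (x axis), with arms by colour, points for libraries and lines for means of 4. PCGF3-AS1 and SND1-IT1 are highest under T-REX at 3 h. OIP5-AS1 at 3 h lies at 113 to 124 CPM under T-REX and 126 to 147 CPM with DMSO.

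At 12 h, the calls again came mostly from DMSO. T-REX against DMSO called 28 members (4.42%, 21 higher and 7 lower), well under the 10.9% of all genes (601 higher and 997 lower). Against light alone 2 members were called (0.315%, both lower; 1.29% of all genes) and against probe alone 3 (0.473%, 1 higher; 0.701% of all genes). Against at least 2 controls, 3 members passed (0.473%, compared with 1.4% of all genes), 2 of them lower, FMNL1-AS1 included, and PRC1-AS1 higher. The median log2 fold change of members was 0.03 from light alone, 0.01 from probe alone and 0.06 from DMSO. Over the other long noncoding RNAs it was 0.06, 0.05 and 0.10.

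FMNL1-AS1, antisense to a formin gene, was at 2.74, 3.50, 4.36 and 3.15 CPM under T-REX at 12 h. It was at 5.93, 6.68, 6.34 and 4.85 CPM with light alone, at 5.54, 4.82, 5.63 and 4.92 CPM with DMSO and at 5.28, 4.80, 4.68 and 3.49 CPM with probe alone, and T-REX overlapped only the last. Its log2 fold change was -0.80 ± 0.16 against light alone (adjusted p = 0.00826), -0.61 ± 0.17 against DMSO (adjusted p = 0.0193) and -0.42 ± 0.17 against probe alone (adjusted p = 0.327). FMNL1 itself was low, with arm means of 1.30 to 2.34 CPM over all times, and was not called.

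PRC1-AS1, antisense to a gene for a microtubule-bundling protein of cytokinesis, was at 9.34, 9.04, 8.26 and 9.26 CPM under T-REX at 12 h, above all control libraries. These ran from 6.00 to 7.64 CPM with light alone, from 3.68 to 7.54 CPM with probe alone and from 4.54 to 6.57 CPM with DMSO. Its log2 fold change was 0.43 ± 0.16 (adjusted p = 0.211), 0.67 ± 0.16 (adjusted p = 0.0427) and 0.76 ± 0.16 (adjusted p = 0.00359). The call against probe alone held in 4 of 16 fits without 1 library, and that against DMSO in 16 of 16. PRC1 was not called, with log2 fold changes of -0.16 ± 0.21, -0.01 ± 0.21 and 0.35 ± 0.22.

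IRS4-AS1 starts at the promoter of IRS4, an insulin receptor substrate that HEK293T cells express highly. At 12 h it was at 10.6, 10.2, 9.98 and 9.43 CPM under T-REX, below all control libraries: 13.3, 13.3, 13 and 16.3 CPM with light alone, 13.6, 15.4, 13.5 and 13.9 CPM with probe alone, and 16, 18.4, 28.5 and 15.8 CPM with DMSO. Only the difference from DMSO was called (log2 fold change -0.97 ± 0.14, adjusted p = 0.000192), beside -0.47 ± 0.14 against light alone (adjusted p = 0.112) and -0.49 ± 0.14 against probe alone (adjusted p = 0.134). The third DMSO library was far above the others, and without any 1 library in turn the change against DMSO was -1.06 to -0.73 and kept its call.

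IRS4 itself divided the arms in another way. At 12 h it was at 522 ± 19 CPM under T-REX and 515 ± 26.9 CPM with probe alone (SD, n = 4), compared with 644 ± 27.7 CPM with light alone and 676 ± 38.8 CPM with DMSO. It was called lower against light alone (-0.30 ± 0.05, adjusted p = 0.00138) and also DMSO (-0.38 ± 0.05, adjusted p = 6.45e-05). Its log2 fold change was 0.02 ± 0.05 against probe alone (adjusted p = 0.949). The arms with lower IRS4 were those with more NCBP1 counts, and the part of the latter was not tested.

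HOXA-AS3, from the HOXA cluster, fell at 12 h compared with probe alone (-0.50 ± 0.11 on the log2 scale, adjusted p = 0.0192). It was at 7.44, 7.92, 7.58 and 7.77 CPM under T-REX and at 11.8, 10.1, 11.5 and 9.98 CPM with probe alone, whereas light alone (6.73 to 8.05 CPM) overlapped T-REX. DMSO (8.06 to 9.45 CPM) lay between T-REX and probe alone and overlapped neither. T-REX was not called against DMSO (-0.20 ± 0.11, adjusted p = 0.237), nor was probe alone (0.30 ± 0.11, adjusted p = 0.0833), whereas light alone was lower than probe alone (-0.56 ± 0.11, adjusted p = 0.0116). The call against probe alone held in 11 of 16 fits without 1 library. PCBP1-AS1, antisense to the poly(rC)-binding protein gene PCBP1, was at 99.3, 99.6, 98.5 and 102 CPM under T-REX at 12 h and at 74.3, 78.5, 77.0 and 91.0 CPM with DMSO. It rose compared with DMSO at 12 h (0.31 ± 0.06 on the log2 scale, adjusted p = 0.00194) and at 3 h (0.31 ± 0.09, adjusted p = 0.0483), and PCBP1 was not called. The call at 3 h was lost with the replicate number as a block and with only the 2 arms compared, and it held in 3 of 16 fits without 1 library. PCBP1-AS1 was not called against light alone or probe alone at either time. At 12 h its T-REX range overlapped that of probe alone, and probe alone was itself called against DMSO for this transcript.

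Controls differed from each other as well. At 12 h, probe alone against DMSO called 17 members (12 higher), which was 2.68% of members beside 5.11% of all genes. Light alone against probe alone called 3 (0.473% of members, 0.415% of all genes). Light alone against DMSO called no member and 0.0136% of all genes by edgeR, and the unadjusted p was at most 0.05 for 40 members (6.31%) and for 10.4% of all genes. Over the 3 comparisons this made 19 distinct members at 12 h, 2 at 3 h and 0 at 6 h, and DESeq2 called 24, 3 and 2. ID2-AS1 was lower with probe alone than with light alone at 12 h (light alone minus probe alone 0.76 ± 0.13, adjusted p = 0.00488), and ID2, an inhibitor of bHLH transcription factors, was called with it. FGD5-AS1, PCBP1-AS1, IRS4-AS1 and KCNMB2-AS1 were among the 17.

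Of the 55 called members, 46 had their sense gene in the tables, and for 37 of these the sense gene was called in none of the 9 comparisons and for 9 (19.6%) in at least 1. Of the 541 sense genes of all members, 115 (21.3%) were called in at least 1. Within the comparison with DMSO, the sense gene was called with 2 of 21 called members at 3 h, where 53 of 541 sense genes were called, and with 5 of 25 at 12 h, where 87 of 541 were. In the same comparison, member and sense gene were called the same way for 5 pairs, among them those of SND1-IT1, IRS4-AS1, ARNT2-DT and OSER1-DT, and in opposite ways for 2. SLC16A1-AS1 was higher against DMSO at 12 h (0.23 ± 0.06, adjusted p = 0.0151) while SLC16A1, which codes for a lactate transporter, was lower (-0.34 ± 0.06, adjusted p = 0.00163). DICER1-AS1 was higher against DMSO at 3 h (0.42 ± 0.11, adjusted p = 0.0231) while DICER1, which cuts microRNA precursors, was lower (-0.22 ± 0.04, adjusted p = 0.00587).

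Over all pairs, the log2 fold changes of member and sense gene were weakly related. Pearson's r across pairs of genes, which are not independent replicates and share libraries and depth, was 0.10 to 0.31 for 315 -AS pairs over the 9 comparisons, 0.00 to 0.19 for 206 -DT pairs and -0.04 to 0.54 for 35 -IT pairs. The median sense gene did not share the members' shift at 3 h: medians over pairs were -0.03 (light alone), -0.01 (probe alone) and -0.03 (DMSO). Of the 18 members whose sense gene was called the same way against at least 2 controls at any time, 2 (SND1-IT1 and IRS4-AS1) were themselves called in at least 1 comparison. The share called at least once was 8.68% over all members and 14.9% over all genes. SLC2A1, which codes for a glucose transporter, was lower against all controls at 12 h (-0.69, -0.50 and -0.45), and SLC2A1-DT was not called (-0.21, -0.02 and -0.05).

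**Figure D3:**
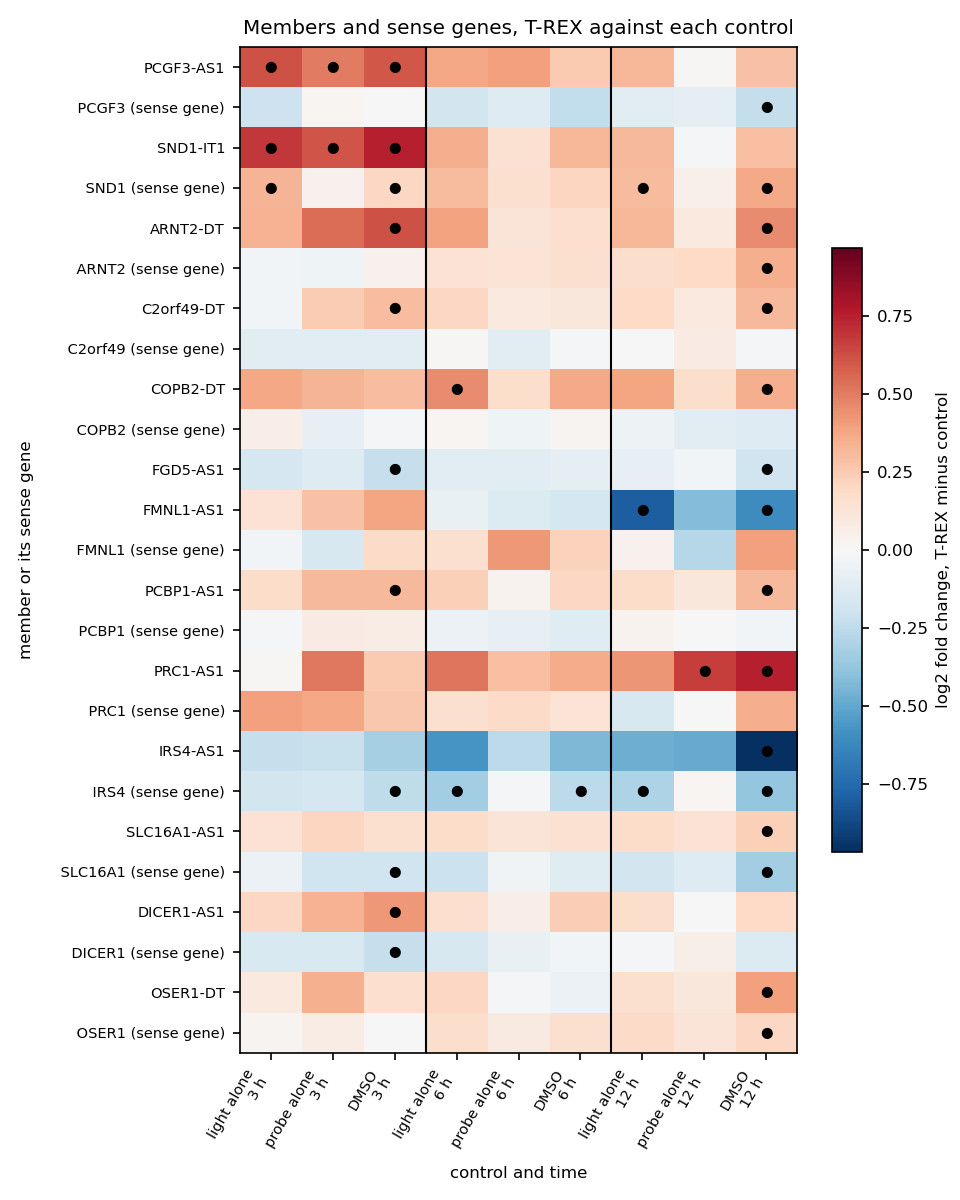
Log2 fold change (colour) of T-REX minus each control at 3, 6 and 12 h (x axis) for a selection of the 55 called members. Each is drawn above its sense gene where that gene is in the tables (y axis). Dots mark an adjusted p of at most 0.05. Over all called members, the sense gene was called with 2 of 21 against DMSO at 3 h and with 5 of 25 at 12 h. Of all 541 sense genes, 53 and 87 were called in these comparisons.

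**Figure D4:**
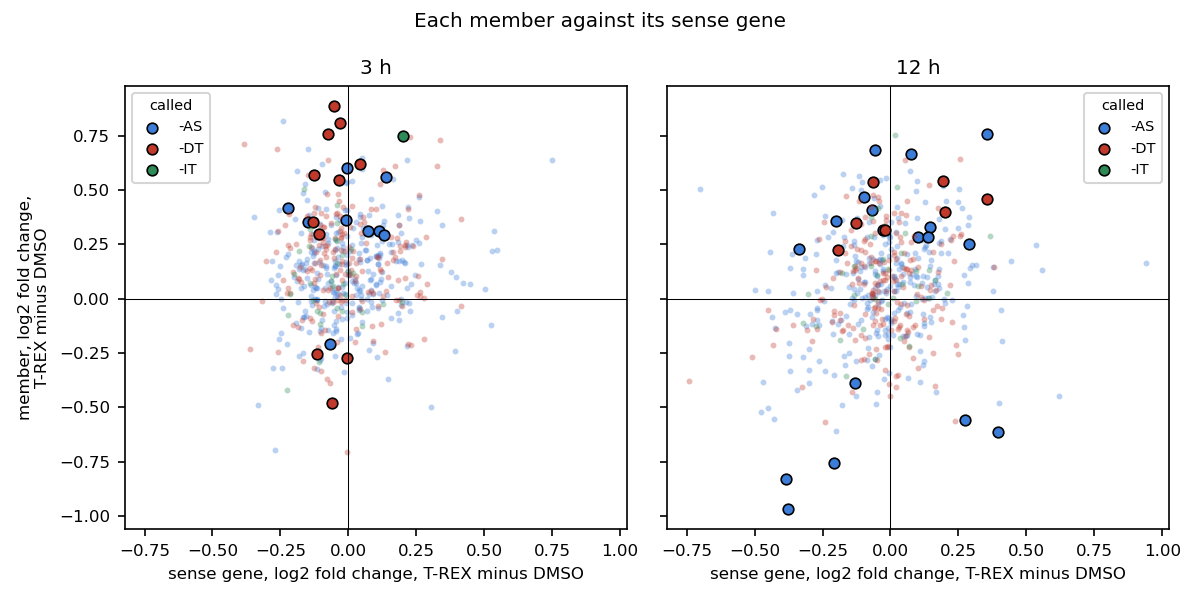
Log2 fold change of each member (y axis) against that of its sense gene (x axis), T-REX minus DMSO, at 3 h (left) and 12 h (right), with class by colour and outlined points for called members. Called members, most of them above 0 on the y axis, have sense genes on both sides of 0.

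Of 35 antisense and divergent transcripts with a described role in other work, 25 were in the tables and 5 were called at least once. At least 1 call was made for 14.9% of all genes and 8.68% of members. FGD5-AS1 and OIP5-AS1 were lower, and PCBP1-AS1, SLC16A1-AS1 and BDNF-AS were higher (BDNF-AS 0.48 ± 0.12 against DMSO at 3 h, adjusted p = 0.0186). The other 20 were not called. They included MCM3AP-AS1 (-0.06 to 0.07), THAP9-AS1 (-0.03 to 0.10), CDKN2B-AS1, antisense to a cyclin-dependent kinase inhibitor gene (-0.02 to 0.20), and HOXA11-AS (-0.77 to 0.44).

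Genes that bind, cut or degrade noncoding transcripts were read from a separate list. Of 42 genes for the cap-binding complex and its partners, the nuclear exosome and its adaptors, the Integrator complex and termination factors, 40 were called in none of the 9 comparisons and 2 in at least 1, beside 14.9% of all genes. NCBP1, with its plasmid counts, was higher against DMSO at 3 h (log2 fold change 0.50) and 12 h (0.73) and against light alone at 6 h (0.80). MPHOSPH6, an exosome cofactor gene, was lower against DMSO at 12 h (-0.36, adjusted p = 0.00273). The median over the 42 genes was between -0.04 and 0.01 in every comparison, and apart from NCBP1 the log2 fold changes lay between -0.58 and 0.50.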

How the data were processed

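Stranded libraries were made by the authors from total RNA of 48 samples after depletion of ribosomal RNA. The authors deposited, for each time point, raw counts per gene that were not normalized (14685 Ensembl identifiers). The study lists cutadapt, tophat and cufflinks for its time-resolved RNA-seq, and the labels name bcl2fastq. The program that counted reads per gene, the genome build and the strand setting are not given in the sources used here. The authors also deposited 2 factors of unwanted variation as a score per library, which were used only as covariates of an alternative. The deposited log2 CPM tables were not used.

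Members were found by current symbol (14648 of 14685 identifiers had one). 2 identifiers share a symbol and were kept apart. Gene types, exon lengths and relative positions are from GENCODE 29, which holds all but 3 members. 1 member is included in the counts but not reported here. The members and lists were chosen with earlier results of these data known.

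For each time point, 1 model over its 16 libraries was fitted in edgeR 4.0.16 (R 4.3.3; TMM, filterByExpr, which removed 0 genes, estimateDisp, robust glmQLFit, quasi-likelihood F-test) and adjusted by Benjamini-Hochberg over all genes within a comparison. The change of the T-REX effect over time was tested in 1 fit of 48 libraries. CPM were scaled by TMM over 48 libraries, and deviations used log2(CPM + 0.5). The scripts were tested on simulated data. Named transcripts are the 30 called with the smallest adjusted p, the 3 highest of each class, the extremes per class and time above 50 counts, members of called sense genes (at most 10), those with a described role and those called over time. Sequences are from RefSeq. The alternatives were DESeq2 1.42.0, RLE factors, no filter, the replicate number as a block, the 2 factors as covariates, models holding just the pair of arms under comparison, and leaving out each library. Replicate libraries differed by more than counting error (chi-square per degree of freedom 3.15 to 46.5 over 72 pairs).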

Additional observations from a re-analysis of the deposited data

Results flagged for a closer look

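In 2 of 40 groups of 4 libraries examined, 1 library stood apart, its gap to the next, as a share of the group's range, passing the limit of Dixon's test, where chance gives about 1 group in 20. For PCGF3-AS1 under T-REX at 3 h the lowest library (12.8 CPM, the others 15.6 to 15.9 CPM) gave 0.907. For IRS4-AS1 with light alone at 12 h the highest (16.3 CPM) gave 0.925.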

How the results depend on the processing

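No log2 fold change that was called turned its sign under any alternative, but counts of called members moved with the model. In the order light alone, probe alone and DMSO, DESeq2 called 4, 17 and 28 members at 3 h, 4, 4 and 4 at 6 h and 11, 6 and 47 at 12 h, with 12, 3 and 8 against at least 2 controls at the 3 times and 3, 2 and 24 between controls. With the 2 deposited factors as covariates, the counts were 35, 104 and 91 at 3 h, 23, 5 and 17 at 6 h and 33, 21 and 98 at 12 h, with 62, 11 and 29 against at least 2 controls and 63, 29 and 70 between controls. The 3 h counts were 5.52, 16.4 and 14.4% of members, beside 11.8, 17.4 and 20.8% of all genes. With only the 2 arms compared they were 0, 0 and 3 at 3 h, 0, 4 and 3 at 6 h and 31, 7 and 6 at 12 h, with 0, 1 and 6 against at least 2 controls and 3, 0 and 8 between controls. RLE factors and no filter moved none of these counts by over 1.5 times. With the replicate number as a block they were 4, 7 and 25 at 3 h, 2, 1 and 0 at 6 h and 2, 3 and 25 at 12 h, with 6, 1 and 3 against at least 2 controls and 1, 0 and 14 between controls. The numbers did not pair the libraries: the correlation of same-numbered libraries was over 0.1 in 30 of 72 pairs (-0.648 to 0.581), and 14 of 48 libraries correlated best with their own number. Leaving out 1 library gave 1 to 15, 0 to 45 and 8 to 54 members at 3 h, 0 to 5, 0 to 3 and 0 to 6 at 6 h, and 1 to 14, 1 to 5 and 14 to 60 at 12 h. Against at least 2 controls it gave 1 to 29, 0 to 2 and 1 to 9, between controls 0 to 7, 0 to 1 and 8 to 37, and for the change over time 0 to 1 (6 against 3 h), 0 to 2 (12 against 3 h) and 0 to 0 (12 against 6 h). The highest counts at 3 h came without T-REX replicate 3. In that fit the share of all genes called also rose, from 0.197, 1.05 and 5.99% to 0.81, 3.64 and 6.28%. For the other leave-one-out counts and the alternative counts between controls, the shares of all genes are not given here. Those counts therefore describe the models and not the members. At 12 h the count against DMSO was 14 when T-REX replicate 1 was left out and 60 when DMSO replicate 4 was. Over 12 counts each (3 controls and at least 2 controls at each time), the share of members called was below that of all genes in 12 with the factors, 11 with DESeq2, 11 with 2 arms and 9 with the block. The causes of these differences were not tested. Of 69 calls, 61 held with DESeq2, 69 with the factors, 59 with the block and 16 with 2 arms. The medians over members, the calls' direction without T-REX replicate 3 and the settings for members outside the naming rule were added after the data were seen. The median member had 134 counts, which limits what could be detected.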
